A study of Mus musculus with 12 samples.

Results

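The genes described here are 7 members of the systems that make plasmin and start or restrain clotting: Plaur, Plau, Plat, Serpinb2, F3, Thbd and Thbs1. They were chosen by name from the 53801 genes of the count table, and each of the 7 was found in both the colon and the blood table. Plasmin is the protease that dissolves fibrin clots and also trims the matrix around cells, and it is cut from its liver-made precursor plasminogen by the activators urokinase and tissue-type plasminogen activator. Clotting starts when blood meets tissue factor on cells outside the vessel, and the endothelial receptor thrombomodulin turns the thrombin that follows into an activator of the anticoagulant protein C. In inflamed gut the balance between clotting and plasmin is known to be disturbed, and leukocytes, fibroblasts, endothelium and platelets all carry some of these proteins.

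Total RNA was sequenced from the colon and whole blood of 6 wild-type C57BL/6 male mice aged 8 weeks. Those labelled ulcerative colitis (UC; mice 1, 2 and 4) drank 1.5% dextran sulfate sodium (DSS), a polymer that injures the gut lining, for 7 days, and those labelled control (mice 7, 8 and 9) drank water without DSS. All were killed on day 8, and the mice sequenced had been picked from a larger set by their disease activity score. Each of the 4 groups therefore held 3 libraries, and colon and blood of a mouse carry the same number. Colon libraries held 69181049 to 103662306 counts and blood libraries 80867247 to 142536804, and in the colon the libraries labelled UC held the 3 highest totals. The 7SL RNA genes took 35.9% to 65.4% of a blood library and 4.90% to 6.50% of a colon library. A pair of label fields name opposite tissues for every sample. The tissue characteristic was followed, since the 7 colon epithelium markers were higher in the colon libraries and the 5 tested red cell markers were higher in the blood libraries. The disease labels could not be checked by a targeted gene, and neutrophil genes did not follow them: colon S100a8 had 5370, 33.1 and 22.3 normalized counts under the UC label (mice 1, 2 and 4), against 1888, 75.6 and 13337 under the control label (mice 7, 8 and 9). In the blood, 7 of 9 neutrophil markers had a positive log2FC for the UC label, with none called, and blood S100a8 was highest in mice 9, 1 and 7. Whether labels were exchanged was not tested. Groups are therefore called the libraries labelled UC and labelled control, and p-values measure the spread between these libraries.

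Levels below are the authors' normalized counts, in which each library's counts are divided by 1 factor for that library, and they are compared only within a tissue. Values are given as those of the UC label (mice 1, 2 and 4) against those of the control label (mice 7, 8 and 9). In bulk tissue, fewer cells of a type and less RNA per cell cannot be told apart. In the colon, Plaur, Plau, Plat, Serpinb2, Thbd and Thbs1 were each highest in mice 1, 7 and 9, of which 1 carries the UC and 2 the control label. Mouse 2 came close for Thbd (1934, against 1989 in mouse 9) and Plau (1123, against 1157 in mouse 7). F3 had its 3 lowest normalized counts in mice 1, 7 and 9, but mouse 9 (4519) lay close to mouse 2 (4590). With counts divided by exon length and scaled to the same sum in each library, F3 was higher in mouse 9 than in mouse 2 (51.4 against 45.1). The labelled groups overlapped for all 7 members in the colon and for all 5 members tested in the blood. Between tissues, F3, Plat and Plau were higher in colon and Serpinb2 was higher in blood, with no overlap of colon and blood counts. Thbs1 was higher in blood with overlapping counts and lost its call under another scaling, and Plaur and Thbd were not called.

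**Figure D1:**
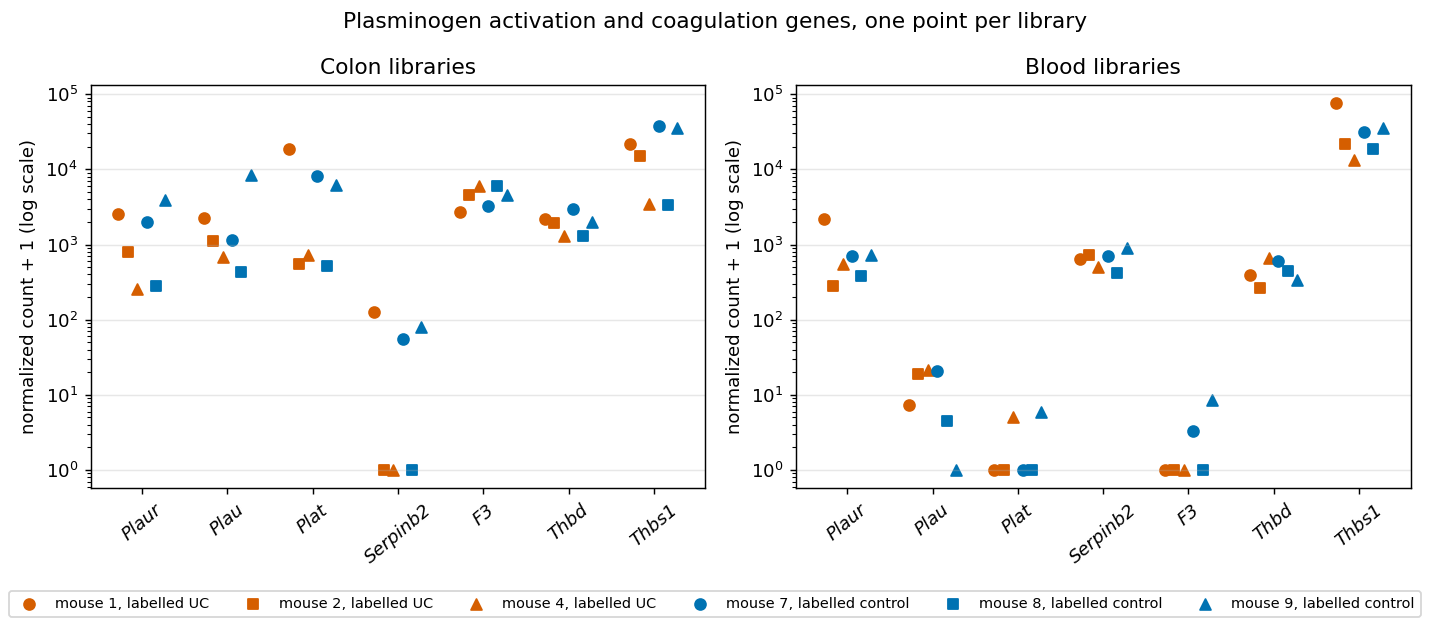
The normalized count plus 1 (log axis) of each member in each colon library (left) and blood library (right), with 1 point per mouse, orange for labelled UC and blue for labelled control. In the colon, Plat lies at 6211 or above in mice 1, 7 and 9 and at 725 or below in the others, and in the blood F3 and Plat lie at or near 0.

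Bases upstream of the start site are shown for Plaur, Serpinb2 and F3, the members with an entry in the RefSeq promoter table. They include F3, whose order of colon values differed from that of Plaur and Serpinb2. The sequences are the 250 bases before the RefSeq start on GRCm38.p6, all from the plus strand, with motif letters in capitals. They are chr7:24462233-24462482 for Plaur, chr1:107511173-107511422 for the first of the annotated Serpinb2 starts and chr3:121723287-121723536 for F3.
Plaur: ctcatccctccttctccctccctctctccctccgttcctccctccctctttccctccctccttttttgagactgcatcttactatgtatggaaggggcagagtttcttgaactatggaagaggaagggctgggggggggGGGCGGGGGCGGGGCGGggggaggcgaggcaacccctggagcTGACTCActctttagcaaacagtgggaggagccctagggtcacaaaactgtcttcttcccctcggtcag
Serpinb2: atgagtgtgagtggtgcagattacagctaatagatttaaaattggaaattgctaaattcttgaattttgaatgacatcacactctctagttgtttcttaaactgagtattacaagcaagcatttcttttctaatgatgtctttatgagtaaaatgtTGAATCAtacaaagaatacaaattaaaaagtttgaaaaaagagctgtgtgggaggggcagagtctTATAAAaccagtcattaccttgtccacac
F3: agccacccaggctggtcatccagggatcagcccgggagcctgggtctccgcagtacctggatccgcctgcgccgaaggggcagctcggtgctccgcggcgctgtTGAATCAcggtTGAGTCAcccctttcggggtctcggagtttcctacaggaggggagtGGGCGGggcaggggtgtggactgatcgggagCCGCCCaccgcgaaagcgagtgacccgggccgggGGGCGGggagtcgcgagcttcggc

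Capitals mark the AP-1 letters TGANTCA (N is any base), the SP1 letters GGGCGG and the TATA box letters TATAAA, each searched on both strands. All 3 windows held TGANTCA, which 6.73% of the 32536 RefSeq promoter windows of the same length held. In Plaur it lay 69 to 63 bases before the start, in Serpinb2 94 to 88 bases before it, and F3 held it at 146 to 140 and at 135 to 129 bases. GGGCGG occurred 3 times in Plaur, with the last of them sharing a base with the copy before it, and 3 times in F3, where 1 copy read on the opposite strand. It was not in the Serpinb2 window, and 33% of all windows held it. Serpinb2 alone of the 3 held TATAAA, 29 to 24 bases before the start, against 12.3% of all windows. The cAMP response letters TGACGTCA (1.56% of windows), the EGR1 letters GCGTGGGCG (0.541%) and the NF-kappaB consensus (7.28%) were in none of the 3. Only exact matches were counted, so the lack of a match does not show that no site is there. The letters cggagtttcc in the F3 window depart from the NF-kappaB consensus at their first base alone. In the Serpinb2 window, tgacatca departs from the cAMP response letters at a single base. Other near matches were not counted. The GC content was 59.6% in Plaur, 32.4% in Serpinb2 and 70% in F3, against a median of 52.4%. A match describes letters in a window and is not evidence of binding.

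Plaur (ENSMUSG00000046223; chromosome 7, 24462484 to 24475968, plus strand, GRCm38) encodes the urokinase receptor, which holds urokinase at the cell surface. Its normalized counts in the colon were 2538, 796 and 258 against 1982, 284 and 3913. Each labelled group thus spanned low and high libraries, with mouse 9 highest and mouse 4 lowest. In the blood the values were 2203, 282 and 555 against 700, 379 and 716. Mouse 1 was again high, with more normalized counts than every other blood library, and the labelled groups overlapped. With counts divided by exon length and scaled to the same sum in each library, mouse 9 exceeded mouse 1 (11.8 against 8.42). The labelled difference was -0.78 on the log2 scale (log2FC; SE 1.06) in the colon and 0.75 (SE 0.68) in the blood. The colon value was 0.047 without mouse 9 and the blood value -0.50 without mouse 1, so each sign rested on 1 library.

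Plau (ENSMUSG00000021822; chromosome 14, 20836660 to 20843385, plus strand) encodes urokinase, the secreted protease that Plaur binds. In the colon its values were 2239, 1123 and 680 against 1157, 430 and 8285. Mouse 9 stood above all other colon libraries, while mice 2 and 7, of different labels, lay side by side. In the blood Plau was close to undetected, at 6.32, 18.1 and 20.5 against 19.9, 3.45 and 0, from 72 counts over the 6 libraries. Its log2FC was -1.28 (SE 1.05) in the colon and 0.90 (SE 1.24) in the blood. Leaving out mouse 9 turned the colon value to 0.73, and that mouse decided its sign. The blood value ran from 0.34 without mouse 9 to 3.11 without mouse 7.

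Plat (ENSMUSG00000031538; chromosome 8, 22757727 to 22782844, plus strand) encodes tissue-type plasminogen activator, which works best on fibrin. Its colon values were 18763, 550 and 725 against 8115, 509 and 6211. There was a wide gap, from 725 to 6211, between mice 2, 4 and 8 on one side and mice 1, 7 and 9 on the other, and it ran across both labels. The log2FC between labels was 0.42 (SE 1.50), and it was -2.96 without mouse 1. In the blood Plat had 11 counts in all, in mice 4 and 9, and it did not pass the filter on low counts.

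Plau and Plat can be set against each other within a library once counts are divided by exon length. Plau over Plat was 0.315, 5.38 and 2.47 against 0.376, 2.23 and 3.52 in the colon. Plat was thus the higher activator message in mice 1 and 7 and Plau in the other 4 colon libraries, and this held with the longest transcript as the length. Mouse 9, which had high values of both, was on the Plau side.

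Serpinb2 (ENSMUSG00000062345; chromosome 1, 107511423 to 107535478, plus strand) encodes PAI-2, an inhibitor of urokinase that stays mostly inside cells. In the colon its values were 126, 0 and 0 against 54.4, 0 and 79.2. It was counted in the same 3 colon libraries in which Plat was high and in no other. In the blood it was present in each library, at 636, 718 and 495 against 692, 422 and 909. Those blood values lay within a narrow band, and the labelled groups overlapped, with a log2FC of -0.13 (SE 0.31). The band depended on the scaling: per exon length, scaled to the same sum in each library, blood Serpinb2 ran from 1.49 to 16.7, with mouse 9 highest. The colon log2FC was -0.10 (SE 2.14) and rests on 3 libraries at 0. Serpinb2 shares 291 exon bases with Serpinb10 on the same strand, a serpin gene whose blood counts ran from 301 to 686, so part of the counts of either could belong to the other.

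F3 (ENSMUSG00000028128; chromosome 3, 121723537 to 121735048, plus strand) encodes tissue factor, the membrane protein that binds factor VII and sets off clotting. Its colon values were 2698, 4590 and 6026 against 3237, 6079 and 4519. Mice 1 and 7, in which Plaur and Thbs1 were high, were lowest, mice 4 and 8, in which those genes were lowest, were highest, and mice 2 and 9 lay next to each other. In the blood F3 had 3 counts in mouse 7, 9 in mouse 9 and none in the other 4 libraries, where a count of 0 allows up to 3 counts. Its colon log2FC between labels was -0.07 (SE 0.36).

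Thbd (ENSMUSG00000074743; chromosome 2, 148404466 to 148408188, minus strand, 1 exon) encodes thrombomodulin. Its colon values were 2161, 1934 and 1286 against 2962, 1287 and 1989. These differed far less between libraries than those of Plat or Plau, and mice 4 and 8, of different labels, had almost the same low value. In the blood Thbd had 388, 265 and 651 against 600, 439 and 341, with mouse 4 highest and mouse 2 lowest. Per exon length, scaled to the same sum in each library, mouse 9 (3.96) was highest and mouse 4 was at 2.03. The labelled groups overlapped in both tissues, with a log2FC of -0.23 (SE 0.35) in the colon and -0.08 (SE 0.37) in the blood.

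Thbs1 (ENSMUSG00000040152; chromosome 2, 118111876 to 118127133, plus strand) encodes thrombospondin 1, a matrix protein stored in platelets that binds CD36 and CD47. Its colon values were 21480, 14987 and 3509 against 37834, 3334 and 35991. Mouse 2 lay nearer to mouse 1 than to mice 4 and 8. In the blood the values were 75652, 21489 and 13220 against 31031, 18400 and 35998. Mice 1, 9 and 7 were highest in the blood too. Per exon length, scaled to the same sum in each library, mouse 9 (256) lay above mouse 1 (125). The log2FC between labels was -0.95 (SE 0.95) in the colon and 0.36 (SE 0.62) in the blood, and the blood value was -0.71 without mouse 1. The antisense lincRNA gene Gm29233 shares 208 exon bases with Thbs1 and had no counts.

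A comparison of the labelled groups over all genes was made with edgeR's quasi-likelihood test, and calls needed an adjusted p no higher than 0.05 with a log2FC beyond 1 in either direction. In the colon, 0 of the 7 members were called, against 1 of 22238 genes tested (0.0045%), and each member had an adjusted p of 0.99995. In the blood, 0 of the 5 members tested were called, against 0 of 16759 genes (0%), and each had an adjusted p of 0.9998. In both tissues 0 members had an unadjusted p under 0.05 in edgeR, and DESeq2 and limma-voom also called 0 members. Groups without overlap between labels made up 5.67% of all colon genes tested and 6.5% of all blood genes tested, but 0 members in either tissue. An interaction contrast fitted to the 12 libraries asked whether the labelled difference itself differed between tissues, and it called 0 of 7 members and 0.0043% of 23258 genes. F3 had the only unadjusted p under 0.05 in that test, 0.022 in edgeR with an adjusted p of 0.99999, for a difference of 5.86 (SE 2.12) that rests on the 12 blood counts given above. The intervals are wide: an SE of about 1 for Plaur, Plau and Thbs1 in the colon leaves differences of severalfold in either direction undetectable.

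**Figure D2:**
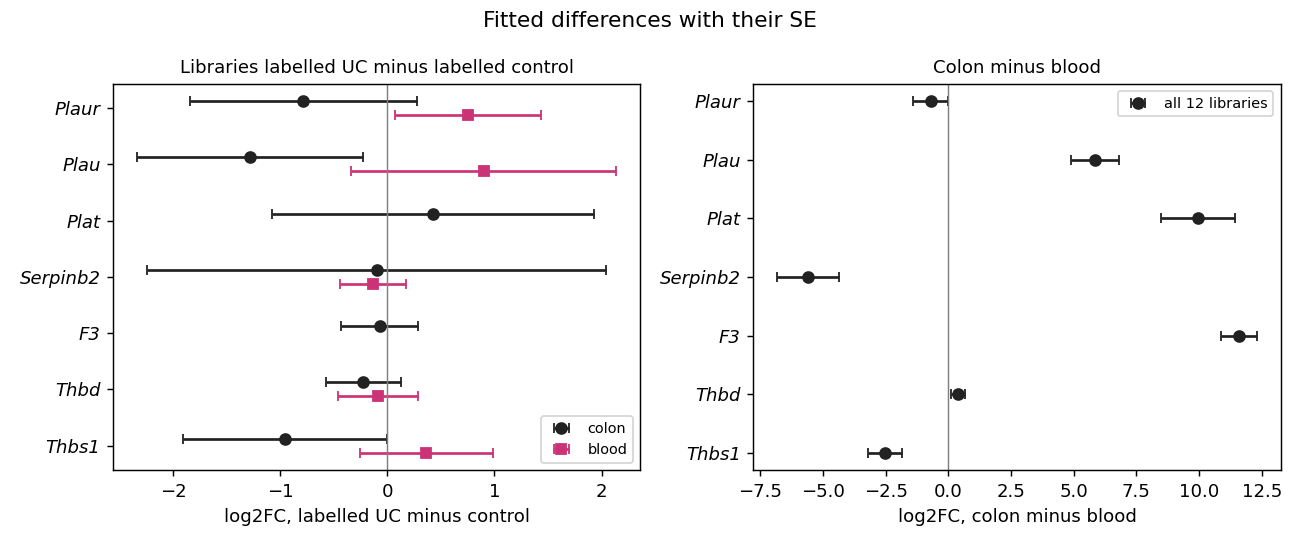
Fitted log2FC of each member with its SE as bars: libraries labelled UC minus labelled control on the left, for colon (black circles) and blood (pink squares, without F3 and Plat), and colon minus blood on the right. On the left no member reached an adjusted p of 0.05, and on the right F3 (11.59), Plat (9.96) and Plau (5.85) lie far above 0 and Serpinb2 (-5.59) and Thbs1 (-2.52) below it.

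The order of values across mice is given as a description, since the labels do not group the mice in this way. The 3 highest colon values were in mice 1, 7 and 9 for 6 of the 7 members, and 18.2% of all colon genes tested had that order. F3 had its 3 lowest values there, as did 14.7% of all genes. These orders of normalized counts changed for F3 and Plau with counts per exon length, scaled to the same sum in each library. F3 was then higher in mouse 9 than in mouse 2 (51.4 against 45.1), and Plau was higher in mouse 2 than in mouse 7 (11.8 against 11.2). In the blood, Plaur and Thbs1 had their 3 highest values in mice 1, 7 and 9, that is 2 of the 5 members tested, against 11.8% of genes. Serpinb2, Thbd and Plau showed no such order in the blood, and no blood member had its 3 lowest values in those mice, as 7.23% of genes did. The deposited normalized tables also list their columns in the order of mice 1, 7, 9, 2, 4 and 8.

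Marker sums of several cell types, though not of all, were highest in colon mice 1, 7 and 9, as for most members. Over 9 neutrophil markers the summed normalized counts were 34378, 7451 and 16534 against 26762, 17750 and 67159. Ly6g made up most of these sums in every mouse but 9, and unlike the other 8 markers it was higher in colon than in blood (log2FC 2.90). Without it the sums were 12883, 101 and 179 against 5938, 295 and 41680, and 6 of the 9 markers were counted in all 6 colon libraries. Over 9 monocyte and macrophage markers the sums were 18288, 9308 and 10005 against 24514, 7800 and 34417, so mice 1, 7 and 9 were highest, as for Plaur and Thbs1. The 7 fibroblast markers summed to 133763, 111846 and 87257 against 180834, 79355 and 229445, and 7 endothelial markers to 6686, 7786 and 5935 against 9935, 5778 and 11966. The endothelial sum was thus higher in mouse 2 than in mouse 1. Smooth muscle markers ran lower in mouse 9, at 100737, than in the other libraries, at 196768 to 448946, and the 10 squamous epithelium markers, of which 8 were in the table, summed to 386, 216 and 206 against 407, 246 and 779. Of the defining squamous markers, Krt5 and Krt4 were at 0 to 9.0 in each colon library, while Dsg3 had 48.3, 0 and 0 against 158, 7.56 and 487. Platelet markers (3917, 3315 and 2696 against 3588, 2304 and 4687) and enteric neuron and glia markers (3545, 1973 and 1835 against 3141, 1234 and 3839) were highest in mice 1, 7 and 9. Colon epithelium markers (2130278, 914867 and 1100182 against 2413252, 1305862 and 771693) and red cell markers (2439, 1534 and 4024 against 3779, 4005 and 518) were lowest in mouse 9. The part of these cell types in the members' values was not tested.

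**Figure D3:**
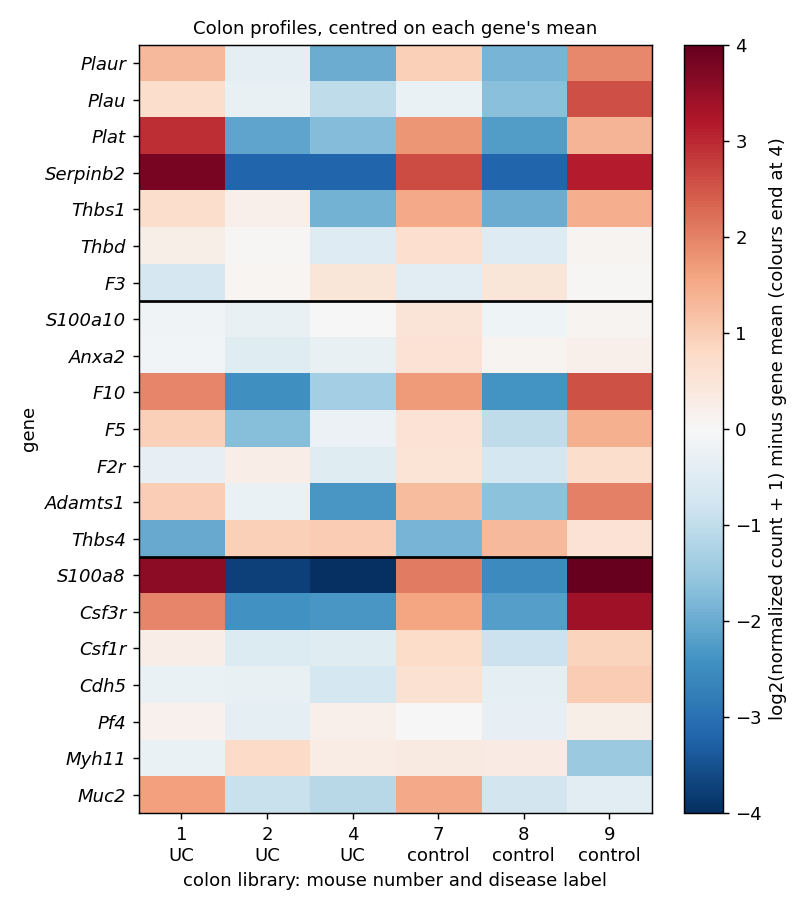
Colon log2(normalized count + 1) of the 7 members (top), 7 other plasmin, clotting and thrombospondin genes (middle) and 7 cell type markers (bottom), each minus its mean over the 6 libraries, with columns in order of mouse number and label. Columns 1, 7 and 9 are red for Plaur, Plat, Serpinb2 and S100a8 and columns 4 and 8 are blue. F3 is pale blue in columns 1 and 7 and pale red in columns 4 and 8, with columns 2 and 9 close to its mean.

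The genes whose profile over the 6 libraries of a tissue was nearest to that of a member were found by the root mean square difference of log2(normalized count + 1) after centring, among 17727 colon and 12692 blood genes with a mean of at least 50. For colon Plaur these were Frem1, Adamts1 and Nod2, with differences of 0.23, 0.26 and 0.28 beside a spread of 1.52 for Plaur itself. Adamts1 encodes a secreted protease that can cut thrombospondin, and Nod2 a sensor of bacterial wall fragments. Colon Plau lay nearest to Inhba, Tnfsf11 and Tnfrsf26 (0.32 to 0.36), and colon Plat to Myl7, Mgat4c and Arg2 (0.36 to 0.42). Colon Thbs1 lay nearest to Gem, Pde4b and Slc25a48 (0.20 to 0.30). Thbd lay nearest to Clip3, Map1a and Plekhf1 (0.07 to 0.08) and F3 to Mrps6, Pcx and Fopnl (0.06 to 0.07), and with own spreads of only 0.42 and 0.43 their small differences are less telling. In the blood, Plaur lay nearest to Tcn2, Amotl2 and Dusp1 (0.11 to 0.14 beside 0.93), and Thbs1 to Sort1, Mxd1 and Apobr (0.10 to 0.14 beside 0.81). Blood Serpinb2 lay nearest to Nqo2, Rgs2 and Gm42659, and blood Thbd to Mtch1, Saysd1 and Dnaaf2. With a pseudocount of 10 in place of 1 at least 2 of the 3 neighbours of each profile stayed, and the nearest gene became BB123696 for colon Plat, Gm44433 for colon Thbd and Clcf1 for colon Thbs1. The points of a profile are 6 libraries, so likeness says how values were ordered and nothing of control.

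Colon and blood were compared over all 12 libraries in 1 fit of the counts, in which kit and RNA extraction also differ and cannot be told apart from tissue. Of the 7 members, 5 were called, against 58.5% of the 23258 genes tested. Of these, 3 were higher in colon (37.7% of all genes) and 2 higher in blood (20.8% of all genes), so these shares are near the background. F3 had 2560 to 7305 counts in a colon library and 0 to 9 in a blood library, and its log2FC of colon minus blood was 11.59 (SE 0.71, edgeR adjusted p = 8.8e-07). Plat had 404 to 19810 counts in colon and 0 to 6 in blood (log2FC 9.96, SE 1.47, adjusted p = 0.00011), and Plau 341 to 9207 and 0 to 26 (5.85, SE 0.95, adjusted p = 0.00022). No colon library overlapped any blood library for these 3 genes, and the fitted values of F3 and Plat depend on the handling of zeros in the blood. With a mouse left out the Plat value ran from 7.98 (without mouse 1) to 12.66 (without mouse 4) and the Plau value from 4.56 (without mouse 9) to 7.27 (without mouse 7).

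Serpinb2 was higher in blood, with a log2FC of -5.59 (SE 1.22, adjusted p = 0.0017), with 367 to 1099 counts in blood and 0 to 133 in colon. Without mouse 1, which held the most colon counts of Serpinb2, the log2FC was -9.47. Thbs1 was higher in blood too, with a log2FC of -2.52 (SE 0.67, adjusted p = 0.0057), although its colon counts, 2645 to 39998, overlapped those of the blood, 14277 to 71841. Plaur (-0.70, SE 0.71, adjusted p = 0.39) and Thbd (0.40, SE 0.29, adjusted p = 0.23) were not called. The median over all genes was 0.46, and scaling by library size alone moved it to 2.57 and changed the calls to 17887 higher and 1757 lower in colon from 8759 and 4845. Under that scaling Thbd was called higher in colon (2.52), Plaur turned to 1.47 and Thbs1 (-0.36) was no longer called. All 8 platelet markers were also higher in blood, with log2FC from -12.83 to -3.43, and they summed to at least 180244 and at most 268810 normalized counts in a blood library, where colon libraries held 2304 to 4687. Of the 7 endothelial markers, 6 were higher in colon. The part of platelets and endothelium in the members' values was not tested.

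Within a library, levels can be ordered between members as counts per exon length, scaled to the same sum in each library. In the colon the medians over 6 libraries were 73.4 for Thbs1, 47.2 for F3, 15.6 for Plat, 13.5 for Thbd, 12.5 for Plaur, 11.5 for Plau and 0.27 for Serpinb2. Only Plau and Serpinb2 were neighbours whose ranges did not overlap, and the order of Thbd and Plaur turned with the longest transcript as the length. In the blood the medians were 56.7 for Thbs1, 3.23 for Plaur, 2.95 for Serpinb2, 1.53 for Thbd and 0.053 for Plau, with Plat and F3 at 0. The ranges of Thbs1 and Plaur did not overlap, nor did those of Thbd and Plau, while Plaur exceeded Serpinb2 in 2 of 6 libraries. Thbs1 was thus the member with the highest median level in both tissues, and F3 was next in the colon but had 9 counts or fewer in a blood library.

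The wider pathway was read in 6 lists of 63 genes. Between labels 0 of the 42 genes tested in the colon and 0 of the 30 tested in the blood were called by edgeR, DESeq2 or limma-voom, with 1 and 0 at an unadjusted edgeR p under 0.05. That gene was Anxa2, part of a surface receptor for plasminogen and Plat, with colon normalized counts of 69059, 53523 and 59977 against 109752, 80068 and 84859, a log2FC of -0.60 (SE 0.21) and an edgeR adjusted p of 0.99995. Its labelled groups did not overlap, and those of its partner S100a10 did. The pathway genes Gas6 and Cd36 in the colon and Tfpi, Plgrkt and Serpinf2 in the blood also had labelled groups without overlap. Over all genes tested the share without overlap was 5.67% in the colon and 6.5% in the blood. Plg, the plasminogen gene, had 9 colon counts in all and none in the blood. In the interaction 0 of 44 were called by edgeR, with 2 at an unadjusted p under 0.05, and DESeq2 called 1, Adamts13, whose blood counts were 71 in mouse 1 and 0 in the other 5 libraries.

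Between tissues 35 of the 44 pathway genes tested were called, 20 higher in colon and 15 in blood, beside 58.5%, 37.7% and 20.8% of all genes. Library size scaling gave 29 higher in colon and 9 in blood: Serpine2, F10, F12, Pros1, Entpd1 and F2rl3 were no longer called, and Entpd1 turned from -1.69 to 0.42. With the replicate block, F12 was not called (edgeR adjusted p = 0.13). In the plasmin list 7 were higher in colon and 1 in blood. Lrp1, a receptor that clears activator complexes, had a log2FC of 2.26 and Anxa2 of 1.42. S100a10 (-0.29) was not called, but under library size scaling it turned positive and was called higher in colon (1.83). In the clotting factor list 2 were higher in colon, Ggcx (1.89) and Vkorc1 (2.03), neither of which encodes a clotting factor itself. The 6 higher in blood included F5 (-7.73), the cofactor of factor X, and Vwf (-4.26), which tethers platelets. They also included F13a1 (-4.00), which links fibrin, and F10 (-3.65, not called under library size scaling). F7, whose product binds tissue factor, had a log2FC of 1.36 and was not called, but was called at 3.52 under library size scaling. In the list of anticoagulants and related genes 5 were higher in colon, among them Gas6 (8.29), and 2 in blood. Procr, the protein C receptor, was at 9.07, with 3 blood counts in all. Tfpi, the inhibitor of the tissue factor complex, was at 1.64. Pros1, the cofactor of protein C, was at -2.22 and not called under library size scaling.

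The protease-activated receptors, which thrombin and other proteases switch on, and the thrombospondin genes went both ways. F2rl1 was higher in colon (3.87) and F2rl2 (-7.68) and F2rl3 (-3.15, not called under library size scaling) in blood. F2r (0.51) was not called, but under library size scaling it was called higher in colon (2.66). Thbs4 (12.76), Adamts1 (11.45) and Thbs2 (7.06) were higher in colon. They had 6, 8 and 22 blood counts in all, so their fitted values depend on the handling of zeros. The Thbs1 receptors Cd36 (-5.63) and Cd47 (-3.38) were higher in blood, the direction of Thbs1. Among serpins on chromosome 1 near Serpinb2, Serpinb5 was higher in colon (12.85) and Serpinb10 (-10.93) and Serpinb7 (-7.11) were higher in blood. Serpinb5 had 3 blood counts in all, and Serpinb10 and Serpinb7 had 12 and 6 colon counts, so these values too depend on the handling of zeros. Serpinb8 (0.33) was not called, but under library size scaling it was called higher in colon (2.48).

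**Figure D4:**
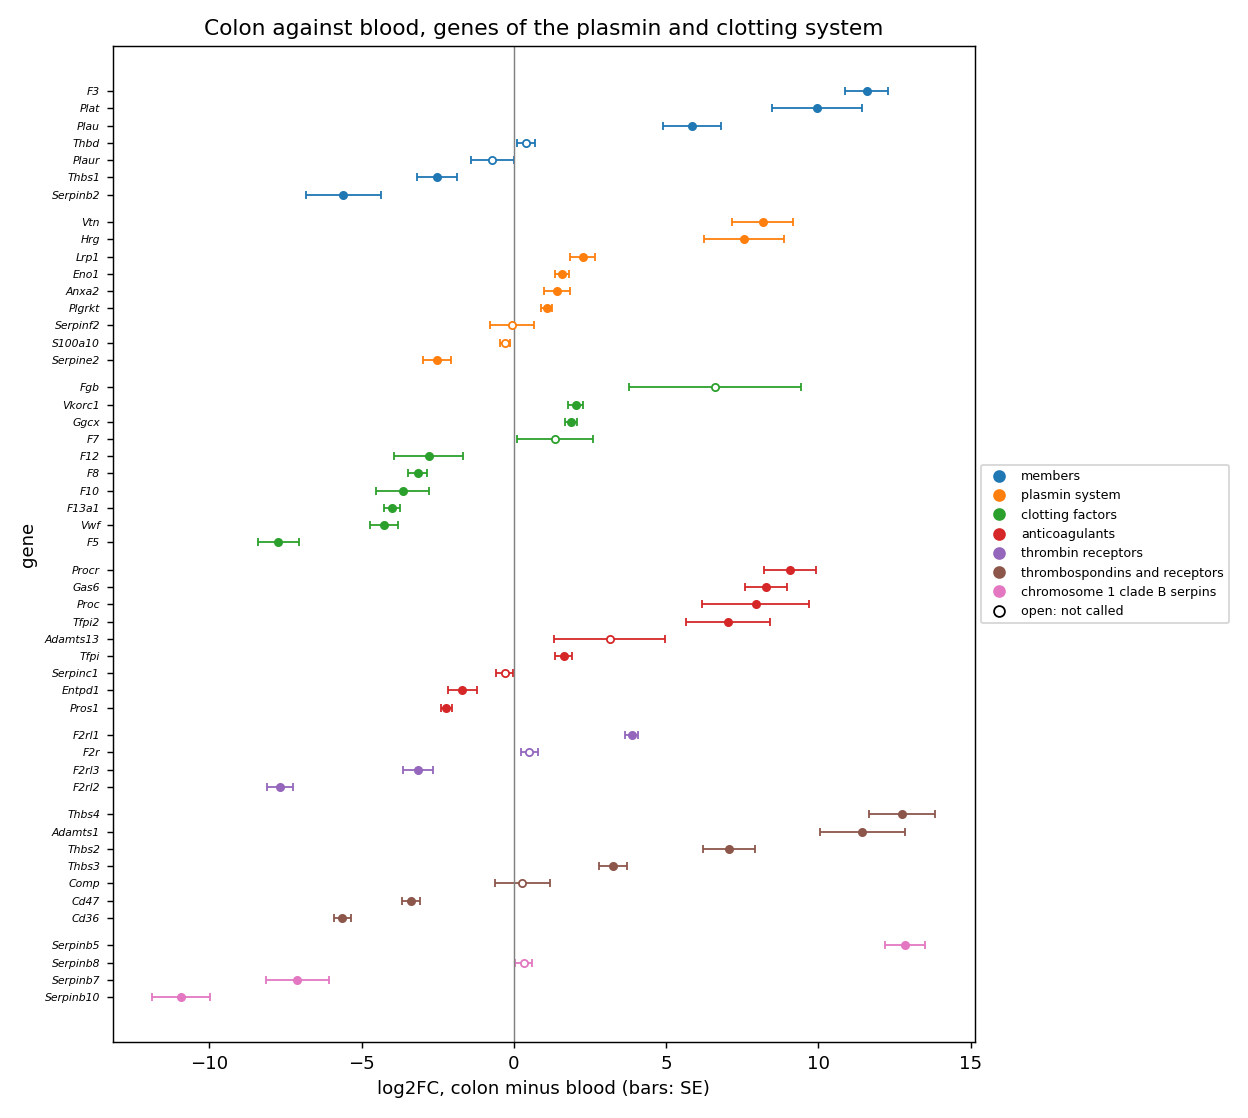
Fitted log2FC of colon minus blood, with SE bars, for the 7 members and tested genes of 6 pathway lists, filled where called and open where not. Genes right of 0 were higher in colon, led by Serpinb5 at 12.85, and genes left of 0 were higher in blood, led by Serpinb10 at -10.93. Serpinb5 had 3 blood counts in all and Serpinb10 had 12 colon counts.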

How the data were processed

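Counts and normalized values of 12 total RNA libraries were used. After removal of ribosomal reads the authors aligned to GRCm38 with STAR and estimated gene abundance with StringTie 1.3.4c on Ensembl 92 annotation at default options, without a strand setting. The deposited counts are whole numbers derived by the authors from StringTie transcript coverage, which divides reads between overlapping genes. The deposited normalized values are a signal scale on which the authors divided counts by a factor per library, separately for each tissue. RNA kits and depletion kits differed between tissues.

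Tests on the counts used edgeR 4.0.16 under R 4.3.3 (TMM, filterByExpr, glmQLFit, glmQLFTest, Benjamini-Hochberg over all genes), each tissue alone, and with all 12 libraries for the interaction and the tissue contrast. SE was taken as log2FC over the root of the F value. The fits were tested on simulated data. Alternatives were RLE or library size scaling, other filters, DESeq2 1.42.0, limma-voom (limma 3.58.1), a fit without 7SL genes, a fit of all libraries, a replicate block and leaving out each mouse. Intervals cover counting error only where a floor of 3 counts is given.

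Gene positions came from GENCODE vM21 and promoter windows from RefSeq, which matched 3 members. The members and lists were chosen with earlier results of these data known. Named genes were the members, the 3 nearest profiles of each member with a mean of at least 50, the 5 largest tissue differences each way among called pathway genes, and a set list of pathway genes, of which 1 is counted in its list but not reported here by itself. Adamts13, S100a8, Csf3r, Krt4, Krt5, Dsg3, Ly6g, Serpine2, F12, Entpd1, Gas6, Plgrkt, Serpinf2, Ggcx, Vkorc1 and Gm29233 were named after their values were seen.

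The study took colon and blood from the same 6 mice, so equal numbers pair libraries. Deviations from labelled group means correlated across 15802 genes at r of 0.271, 0.094 and 0.174 for mice 1, 2 and 4 and 0.086, 0.228 and 0.113 for mice 7, 8 and 9. Libraries of unequal numbers were not compared, so these values cannot show whether the pairing by number is right.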

Additional observations from a re-analysis of the deposited data

How the results depend on the processing

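With 3 libraries a group, only differences well over the spread could be detected, and leaving out a mouse leaves 2 in its group. Counts near 0 limit Plau, Plat and F3 in the blood and Serpinb2 in the colon. The 1 gene called between labels in the colon became 6 with DESeq2, 0 with limma-voom and 0 to 0 with a mouse left out. The 0 genes in the blood became 1 with library size scaling, 6 with DESeq2, and 0 to 3 with a mouse left out, above 0 without mouse 1, 8 or 9. The interaction's 1 gene became 20 with DESeq2, and 1 to 2 with a mouse left out, 2 without mouse 8. With the mouse as a replicate block it became 0, the sign of Plat turned to -0.72 and that of Serpinb2 to -1.85, 12889 genes and the same 5 members were called between tissues, and among the pathway genes F12 lost its call (adjusted p = 0.13). The causes were not tested.

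No alternative called a member between labels. Signs turned for colon Plat (-0.68) and interaction Plat (-0.89) and Serpinb2 (-2.32) with limma-voom, and for blood Thbs1 (-0.18), interaction Thbd (0.12) and tissue Plaur (1.47) with library size scaling. With a mouse left out, colon values ran from -1.96 to 0.047 for Plaur and -1.86 to 0.73 for Plau (both turned without mouse 9), -2.96 to 1.00 for Plat (mouse 1 or 8), -8.50 to 0.58 for Serpinb2 (mice 2, 4, 7 or 9), -0.35 to 0.20 for F3 (1 or 8), and -0.47 to 0.13 for Thbd (7). Blood values ran from 0.34 (without mouse 9) to 3.11 (without mouse 7) for Plau, from -0.50 to 1.20 for Plaur and -0.71 to 0.76 for Thbs1 (both mouse 1), -0.37 to 0.14 for Serpinb2 (4 or 9) and -0.50 to 0.17 for Thbd (1, 2 or 7). Interaction values ran from -4.97 to 0.46 for Plau (9), -4.29 to 5.87 for Plat (1 or 9), -7.75 to 0.71 for Serpinb2 (1 or 8) and -0.47 to 0.46 for Thbd (4). Between tissues, 5 members were called with any mouse left out, among 13210 to 13656 genes.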

Other observations

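Colon mouse 2, labelled UC, held values between those of the other libraries for Thbs1 and Adamts1 and not for neutrophil genes. Adamts1 was at 1864 there, against 450 in mouse 4 and 722 in mouse 8, and at 4427 or above in mice 1, 7 and 9. The neutrophil genes S100a8 (33.1) and Csf3r (34.0) were as low in mouse 2 as in mice 4 (22.3 and 36.3) and 8 (75.6 and 39.1). The difference was seen after the values were read and was not tested.

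Clotting genes that are usually made in the liver were counted in a few colon libraries. F2, the prothrombin gene, had normalized counts of 117 and 67.0 in colon mice 1 and 7 and 0 in the other 4, and Cpb2, which encodes an inhibitor of clot lysis, had 212 and 72.1 in the same mice and 0 in the others. The fibrinogen genes Fga, Fgb and Fgg had 33.1, 36.9 and 28.4 in mouse 1 and 74.7, 69.3 and 36.9 in mouse 9. The liver marker Alb was at 37.9, 72.3 and 52.0 in mice 1, 2 and 4 and at 0, 7.56 and 0 in mice 7, 8 and 9, so it did not have the order of these genes. All 5 hepatocyte markers, of which 2 were counted in each of the 6 libraries, summed to 572, 2790 and 2767 in mice 1, 2 and 4. In mice 7, 8 and 9 the sums were 383, 2200 and 299, so mice 2, 4 and 8 were highest. Alb, at 72.3 or less, made up little of these sums, so they mostly reflect other markers of the list. The genes named here were picked after their values were seen.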
